A study of Mus musculus with 9 samples.

Results

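The enzymes and regulators of cholesterol and fatty acid synthesis were examined in the right ventricle of male mice. The 32 genes were taken by symbol from a fixed set of pathway names, and all 32 were found among the 22061 genes of the arrays. They comprised 17 genes of the sterol branch, 10 of the fatty acid branch and 5 regulators of both. Idi1, Fdft1, Scap, Me1 and Acaca had a further probe set, and a gene was described by whichever of its probe sets was brightest on average. RNA of the right ventricle, cut from the left along the septum, was hybridised to Affymetrix GeneChip WT arrays, 1 array per sample. There were 3 groups of 3 arrays. Wild-type males received a vitamin A sufficient diet, males labelled LRAT -/- received the same sufficient diet, and further males labelled LRAT -/- received a vitamin A deficient diet. The sufficient diet was the deficient one with 250000 U/kg of retinol palmitate added, and the diets lasted 50 days. Age and strain are not given in the labels used here, and no wild-type group on the deficient diet was analysed here. LRAT is lecithin-retinol acyltransferase, which esterifies retinol for storage, and is written Lrat below.

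Cholesterol and fatty acids are both built from acetyl-CoA. The mevalonate pathway turns acetyl-CoA into isoprenoid units, squalene synthase joins them, and a chain of oxidations and reductions turns squalene into cholesterol. In the fatty acid branch, acetyl-CoA carboxylase and fatty acid synthase build palmitate, and desaturases place double bonds into the chains. Both branches are controlled by the sterol regulatory element-binding proteins, which Srebf1 and Srebf2 encode. The escort protein Scap carries these factors from the endoplasmic reticulum for cleavage when sterols are low, and Insig1 and Insig2 hold them back when sterols are high. The product of Srebf2 mainly drives sterol genes and the nutrient-responsive product of Srebf1 mainly drives fatty acid genes. In liver, retinoid X receptors partner the liver X receptors that drive Srebf1 and Scd1. The heart oxidises fatty acids that it largely takes up from blood, and its own synthesis is low.

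A promoter sequence in the RefSeq table of GRCm38.p6 was matched for 25 of the 32 genes, with 34 start sites. No sequence was matched for Sqle, Scd1, Fdft1, Fads1, Stard4, Fdps and Scd2. Windows from 250 bases before to 50 bases after each start were searched on both strands for 3 motifs: CCAAT, the box bound by NF-Y, a factor known to act with sterol regulatory element-binding proteins; TCACNCCAC, a form of the sterol regulatory element; and CACGTG, an E-box. Matches of different motifs, or of CCAAT on opposite strands, can share end bases. CCAAT occurred in 67.6% of the 34 windows, against 37.8% of the 19881 windows of measured genes. By gene it was present in 22 of 25 members (88%), among them all 13 sterol genes with a sequence, against 42.1% of 16231 measured genes. TCACNCCAC was found in Hmgcs1 alone, 1 of 34 windows (2.94%) against 1.2% of measured windows, and CACGTG in 6 of 34 (17.6%) against 8.18%. Overlapping windows of Scap held the same CACGTG. By gene CACGTG was present in 5 of 25 members (20%) against 9.4% of measured genes. A match of letters is a description and not a binding site. The 200 bases from 170 before to 30 after the start are shown for 6 genes on which the results below turn, with every motif match in capitals. They are the first mevalonate enzyme of the set, the gene with the widest spread between arrays, fatty acid synthase, a desaturase and both Srebf genes, with the most downstream of 3 starts for Srebf1. In the order shown, they lie at chr13:119690181-119690380 (plus strand), chr1:169969176-169969375 (minus), chr11:120824518-120824717 (minus), chr19:10101474-10101673 (minus), chr11:60210442-60210641 (minus) and chr15:82147099-82147298 (plus).
Hmgcs1: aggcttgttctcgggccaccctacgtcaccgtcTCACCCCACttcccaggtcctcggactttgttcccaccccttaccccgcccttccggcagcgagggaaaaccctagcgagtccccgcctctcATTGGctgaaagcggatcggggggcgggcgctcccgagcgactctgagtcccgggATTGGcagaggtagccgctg
Hsd17b7: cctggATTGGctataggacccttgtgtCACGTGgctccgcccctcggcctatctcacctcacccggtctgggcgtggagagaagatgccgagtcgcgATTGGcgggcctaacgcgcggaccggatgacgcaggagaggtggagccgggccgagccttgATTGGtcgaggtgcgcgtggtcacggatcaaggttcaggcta
Fasn: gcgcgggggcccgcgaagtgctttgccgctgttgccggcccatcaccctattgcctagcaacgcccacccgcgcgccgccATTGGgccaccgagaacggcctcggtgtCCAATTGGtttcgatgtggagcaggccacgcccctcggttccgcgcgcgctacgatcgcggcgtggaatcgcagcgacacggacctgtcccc
Fads2: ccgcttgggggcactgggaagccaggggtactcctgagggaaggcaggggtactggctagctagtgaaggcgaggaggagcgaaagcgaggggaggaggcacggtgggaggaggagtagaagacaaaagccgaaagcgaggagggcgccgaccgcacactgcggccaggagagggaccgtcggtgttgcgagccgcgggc
Srebf1: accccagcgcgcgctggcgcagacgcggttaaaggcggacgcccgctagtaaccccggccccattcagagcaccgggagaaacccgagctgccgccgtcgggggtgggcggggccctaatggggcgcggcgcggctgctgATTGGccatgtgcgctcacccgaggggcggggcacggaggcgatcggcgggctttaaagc
Srebf2: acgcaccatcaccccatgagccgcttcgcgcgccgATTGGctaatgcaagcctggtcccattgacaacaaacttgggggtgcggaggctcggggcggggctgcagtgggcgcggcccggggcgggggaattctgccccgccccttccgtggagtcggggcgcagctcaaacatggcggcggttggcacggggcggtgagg
In Hmgcs1 the sterol regulatory element begins at position -137 from the start. Fasn carries 3 CCAAT matches on the 2 strands, which begin at -90, -62 and -59, and the latter pair share bases. The Fads2 stretch holds none of the 3 motifs.

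Signals are given as log2 of the RMA value, a background-corrected, quantile-normalized summary of a probe set, so a difference of 1 is a 2-fold change. Background control probes lay at 5.64 on average, and the members' means lay 0.84 to 5.37 above that. Levels of different genes come from different probes and were not set against each other. The arrays labelled Lrat-/- had a higher Lrat signal, 7.58 to 8.09, than the wild-type arrays, 6.25 to 6.43, so the label was not borne out by the signal of this probe set. Whether its probes lie in a deleted part of the gene is not given in the sources used here. After group means were removed, the arrays numbered 3 correlated across genes with each other (r of 0.275 to 0.387) and not with numbers 1 and 2 (-0.365 to -0.012). Wild-type array 1 had the highest of the 9 signals for 13 of the 32 members. How often it was the highest over all genes is not reported here. Values without 1 array are given beside the differences that it moves most. Each difference below compares arrays that share the same wild-type group or the same sufficient group labelled Lrat-/-. The labels do not say that samples of a group were separate animals, so p-values measure the spread between these samples only. In a tissue sample, fewer cells of a type cannot be told apart from less RNA per cell.

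In the fatty acid branch, 7 of 10 genes lay lower and 3 higher in the arrays labelled Lrat-/-. All 4 desaturases lay lower, as did the regulators Srebf1 and Srebf2. The 6 genes that supply and build the chain were split, 3 lower and 3 higher. No member passed the test. Taken over both diets, 6 arrays labelled Lrat-/- were compared with 3 wild-type arrays. At an adjusted p under 0.05, 0 of 32 members were called by limma, where 0.0861% of all genes (19 of 22061) were. With the replicate number as a block, 32 genes were called, none of them a member. The median log2 difference was -0.22 for the 10 fatty acid genes, -0.04 for the 17 sterol genes, -0.08 for the 5 regulators and -0.004 for all genes. At an unadjusted p under 0.05, 7 members lay lower and 0 higher, which is 21.9% of the members, against 4.03% of all genes lower and 3.39% higher. They were Scd1, Fads1, Fads2, Me1, Acaca, Srebf1 and Srebf2, which is 5 of 10 fatty acid genes, 2 of 5 regulators and 0 of 17 sterol genes. In 5 members (15.6%) every array labelled Lrat-/- lay below every wild-type array, as in 2.23% of all genes. With the replicate number as a block, 9 members had an unadjusted p under 0.05, against 10.3% of all genes. Without wild-type array 1 the fatty acid median was -0.14, and at an unadjusted p under 0.05 there were 5 members lower and 1 higher (Hmgcs1). Me1 and Acaca were then no longer among them, which left 3 fatty acid genes. In that fit 47 genes were called, where 19 were with all arrays. Its share of all genes at an unadjusted p under 0.05 is not reported here, so its member counts cannot be set against the shares above.

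**Figure D1:**
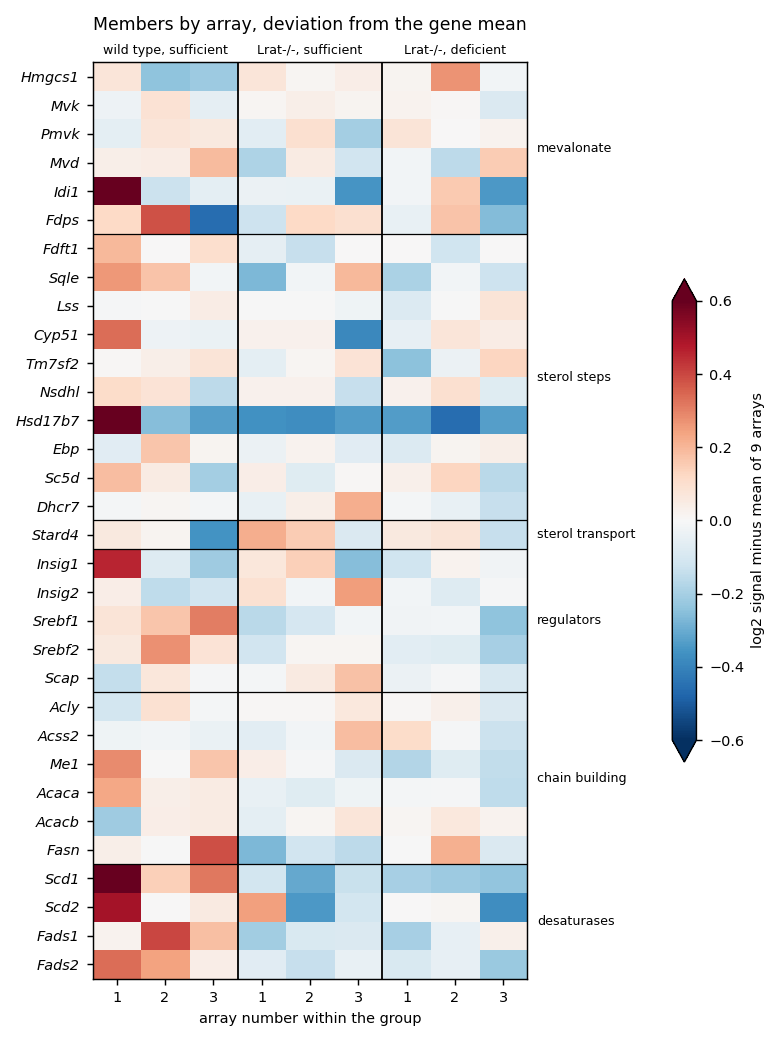
Log2 signal of each of the 32 genes (rows, grouped by role) in each of the 9 arrays (columns, numbered within the group), as the deviation from that gene's mean over the arrays. Colours end at 0.6 in either direction, which Hsd17b7, Idi1 and Scd1 exceed in wild-type array 1. Of the desaturases, Scd1 and Fads2 are redder in every wild-type column than in any other, and Fads1 and Scd2 overlap between groups.

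Scd1 encodes stearoyl-CoA desaturase 1, which places the first double bond into saturated fatty acids. Its log2 signal was 9.71, 9.11 and 9.29 in the wild-type arrays, 8.86, 8.66 and 8.84 in the sufficient arrays labelled Lrat-/-, and 8.77, 8.75 and 8.73 in the deficient ones. All 6 arrays labelled Lrat-/- lay below the lowest wild-type array, and wild-type array 1 was the highest. The mean was 9.37 ± 0.31 in wild type (SD, n = 3) and 8.77 ± 0.07 in the arrays labelled Lrat-/- (SD, n = 6). The log2 difference was -0.60 (SE 0.12), 1.52-fold lower, with an adjusted p of 0.156 in limma. Over the other settings that p ranged from 0.0714, with the replicate number as a block, to 0.387. Without wild-type array 1 the difference was -0.43. Arrays numbered 1 and 2 taken alone gave -0.65, and arrays numbered 3 alone gave -0.50.

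The desaturases of polyunsaturated chains lay lower too. Fads2, the delta-6 desaturase, read 8.97, 8.88 and 8.68 in wild type, 8.57, 8.50 and 8.60 in the sufficient arrays labelled Lrat-/- and 8.55, 8.59 and 8.42 in the deficient ones. Again no array labelled Lrat-/- reached the lowest wild-type array. The log2 difference of Fads2 was -0.31 (SE 0.08, adjusted p = 0.308 in limma). Fads1, the delta-5 desaturase, read 9.31, 9.69 and 9.47 in wild type, 9.08, 9.20 and 9.20 in the sufficient arrays labelled Lrat-/-, and 9.09, 9.24 and 9.32 in the deficient ones. Its groups touched: deficient array 3 lay just above wild-type array 1. The log2 difference of Fads1 was -0.30 (SE 0.09, adjusted p = 0.423 in limma). Scd2, the stearoyl-CoA desaturase known mainly from brain, overlapped widely, with 9.47, 8.97 and 9.02 in wild type against 9.21, 8.62 and 8.86 and then 8.97, 8.98 and 8.60. Its log2 difference of -0.28 (SE 0.16) became -0.12 without wild-type array 1. Summed over the 4 desaturases, the log2 level was 11.14 to 11.39 in wild type, 10.77 to 10.95 in the sufficient and 10.81 to 10.91 in the deficient arrays labelled Lrat-/-.

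Among the 6 genes that supply and build the chain, 3 lay lower and 3 higher, and only Me1 and Acaca had an unadjusted p under 0.05. Me1, the cytosolic malic enzyme that makes NADPH, read 11.29, 11.004 and 11.17 in wild type, 11.05, 10.998 and 10.92 in the sufficient arrays labelled Lrat-/-, and 10.83, 10.94 and 10.86 in the deficient ones. Wild-type array 2 lay within the sufficient group labelled Lrat-/-, while the deficient arrays were all below wild type. The log2 difference over both diets was -0.22 (SE 0.07, adjusted p = 0.471 in limma), and the further Me1 probe set gave -0.20. Acaca, acetyl-CoA carboxylase 1, which makes malonyl-CoA for synthesis, differed by -0.16 (SE 0.07) with no overlap. Its highest signal was in wild-type array 1, without which the difference was -0.09 (unadjusted p = 0.216 in limma). Its further probe set gave -0.24 with overlapping groups. Acacb, the carboxylase whose malonyl-CoA restrains fatty acid entry into mitochondria, differed by 0.06 (SE 0.07). The acetyl-CoA suppliers Acly, ATP citrate lyase, and Acss2, acetyl-CoA synthetase, differed by 0.02 and 0.04.

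Fasn, fatty acid synthase, read 8.32, 8.29 and 8.68 in wild type, 8.02, 8.18 and 8.14 in the sufficient arrays labelled Lrat-/-, and 8.29, 8.50 and 8.20 in the deficient ones. The sufficient arrays labelled Lrat-/- were the lowest 3 of all 9, and the deficient arrays overlapped wild type. The log2 difference between genotype labels on the sufficient diet was -0.32 (SE 0.12, adjusted p = 0.792 in limma). Over both diets it was -0.21 (SE 0.10), and this rested on the arrays numbered 3: it was -0.06 within numbers 1 and 2, -0.51 within number 3 and -0.08 without wild-type array 3.

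**Figure D2:**
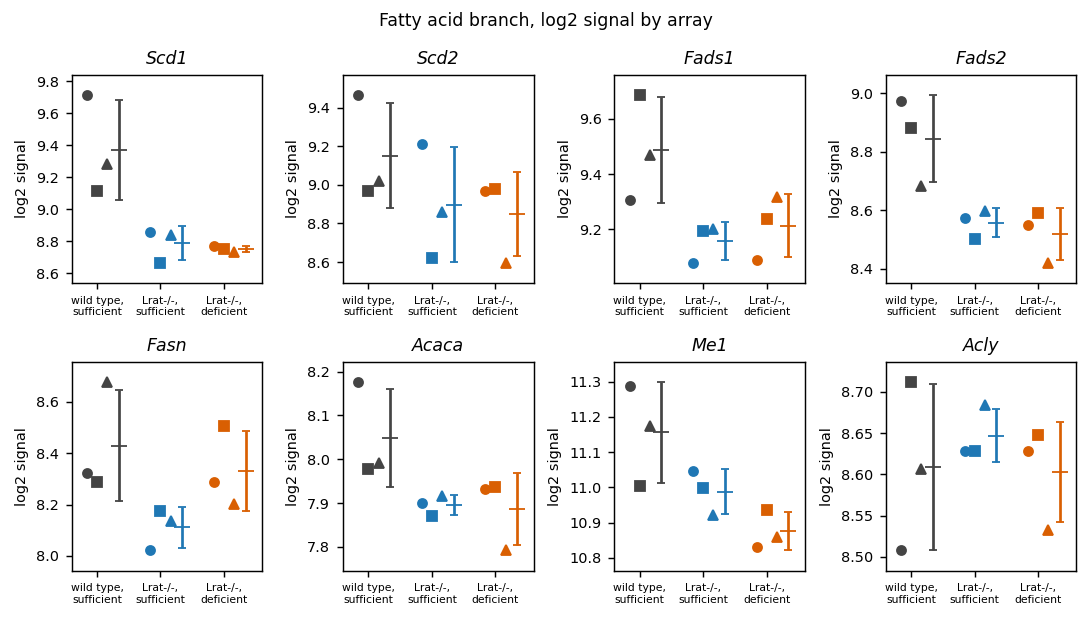
Log2 signal (vertical axis, a range of its own for each gene) of 8 fatty acid genes by group, with circles, squares and triangles for arrays 1, 2 and 3 and the bar for the mean ± SD of 3 arrays. Scd1, Fads2 and Acaca show no overlap between wild type and the 6 arrays labelled Lrat-/-, whereas Acly differed by 0.02.

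Of the regulators, both Srebf genes lay lower in the arrays labelled Lrat-/-. Srebf1 read 8.60, 8.69 and 8.83 in wild type, 8.36, 8.42 and 8.51 in the sufficient and 8.50, 8.51 and 8.28 in the deficient arrays labelled Lrat-/-. The 6 arrays labelled Lrat-/- were all below the 3 of wild type, and the nearest arrays read 8.60 and 8.51. The log2 difference was -0.28 (SE 0.08, adjusted p = 0.375 in limma). Arrays numbered 1 and 2 alone gave -0.20, and arrays numbered 3 alone -0.44. Srebf2 read 8.92, 9.14 and 8.95 in wild type, 8.75, 8.88 and 8.88 in the sufficient and 8.80, 8.79 and 8.66 in the deficient arrays labelled Lrat-/-. These groups did not overlap either, and the log2 difference was -0.21 (SE 0.07, adjusted p = 0.509 in limma). Its highest signal was in wild-type array 2, without which the difference was -0.14 (unadjusted p = 0.086 in limma). The isoforms of Srebf1 were not told apart here.

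The anchor and escort proteins of the pathway overlapped between groups. Insig1, itself a sterol-responsive gene, read 9.90, 9.37 and 9.23 in wild type, 9.51, 9.59 and 9.19 in the sufficient and 9.33, 9.46 and 9.42 in the deficient arrays labelled Lrat-/-. Its log2 difference was -0.08 (SE 0.15), and without wild-type array 1 it was 0.12, so the direction turned. Insig2 read 10.41, 10.22 and 10.25, then 10.46, 10.35 and 10.62, then 10.35, 10.29 and 10.36, a log2 difference of 0.11 (SE 0.08), and 0.17 without wild-type array 1. Scap differed by 0.04 (SE 0.07).

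Of the 17 sterol genes, 13 lay lower and 4 higher in the arrays labelled Lrat-/-, against 51.3% lower among all genes, and none had an unadjusted p under 0.05. The split was 9 lower and 8 higher when each array was centred on its median, and likewise without wild-type array 2. Within the arrays numbered 3 the median of the branch was 0.02, and within numbers 1 and 2 it was -0.08. The first gene of the branch in the set lay the other way. Hmgcs1, which makes HMG-CoA, read 9.06, 8.74 and 8.77 in wild type, 9.06, 8.997 and 9.03 in the sufficient and 9.002, 9.25 and 8.97 in the deficient arrays labelled Lrat-/-. Wild-type arrays 2 and 3 were the lowest of the 9, and wild-type array 1 lay among the others. The log2 difference was 0.20 (SE 0.09, adjusted p = 0.698 in limma), and 0.30 without wild-type array 1. The later mevalonate enzymes, the kinases Mvk and Pmvk, the decarboxylase Mvd, the isomerase Idi1 and the prenyl synthase Fdps, had log2 differences between -0.32 and 0.00.

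Fdft1, squalene synthase, which commits isoprenoids to sterols, read 10.79, 10.60 and 10.69 in wild type, 10.54, 10.46 and 10.60 in the sufficient and 10.60, 10.48 and 10.60 in the deficient arrays labelled Lrat-/-. The highest sufficient array labelled Lrat-/- lay just below wild-type array 2 (10.597 against 10.598), and 2 deficient arrays reached 10.598. Its log2 difference was -0.15 (SE 0.07), and -0.07 in its further probe set. Sqle, squalene epoxidase, a rate-limiting step, read 6.74, 6.65 and 6.46 in wild type, 6.21, 6.46 and 6.67 in the sufficient and 6.29, 6.46 and 6.36 in the deficient arrays labelled Lrat-/-. The groups overlapped, and the log2 difference of -0.21 (SE 0.11) was -0.34 within the arrays numbered 1 and 2 and 0.05 within number 3. Lss, the cyclase that makes lanosterol, lay at -0.02. Of the enzymes after lanosterol, Tm7sf2, Nsdhl, Ebp, Sc5d and Dhcr7 lay between -0.06 and 0.00. The demethylase Cyp51 lay at -0.13, and at -0.01 without wild-type array 1. Dhcr7, which completes cholesterol, read 8.16, 8.19 and 8.16, then 8.13, 8.21 and 8.39, then 8.16, 8.13 and 8.04, with array 3 the highest on one diet and the lowest on the other. Stard4, a carrier of cholesterol between membranes, read 7.24, 7.19 and 6.82, then 7.40, 7.33 and 7.09, then 7.24, 7.25 and 7.04, and array 3 was the lowest of each group. Its log2 difference was 0.14 (SE 0.11), and 0.01 without wild-type array 3.

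A single array gave the widest spread of the whole set. Hsd17b7, a 3-ketosteroid reductase of the sterol chain, read 10.06 in wild-type array 1 against 7.03 and 6.96 in wild-type arrays 2 and 3, and 6.83 to 6.96 in the 6 arrays labelled Lrat-/-. The gap of 3.03 to the next array, 8.15-fold, was the third widest gap of a single highest array among the 22061 genes. In 47 genes the highest array stood more than 1 log2 unit above all others, 32 of them in wild-type array 2 and 6 in wild-type array 1. The log2 difference of Hsd17b7 between genotype labels was -1.10 (SE 0.58) with that array and -0.07 without it. Idi1, isopentenyl diphosphate isomerase, was also high there, at 7.38 against 6.21 to 6.72 elsewhere, and its further probe set read 7.30 there against 5.88 to 6.65. The log2 difference of Idi1 was -0.32 with that array and -0.01 without it. The other members with their highest signal in wild-type array 1 were Fdft1, Sqle, Cyp51, Nsdhl, Sc5d, Insig1, Me1, Acaca, Scd1, Scd2 and Fads2, of which Scd1, Fads2, Me1 and Acaca are among the 7 named above. What sets that array apart was not tested.

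**Figure D3:**
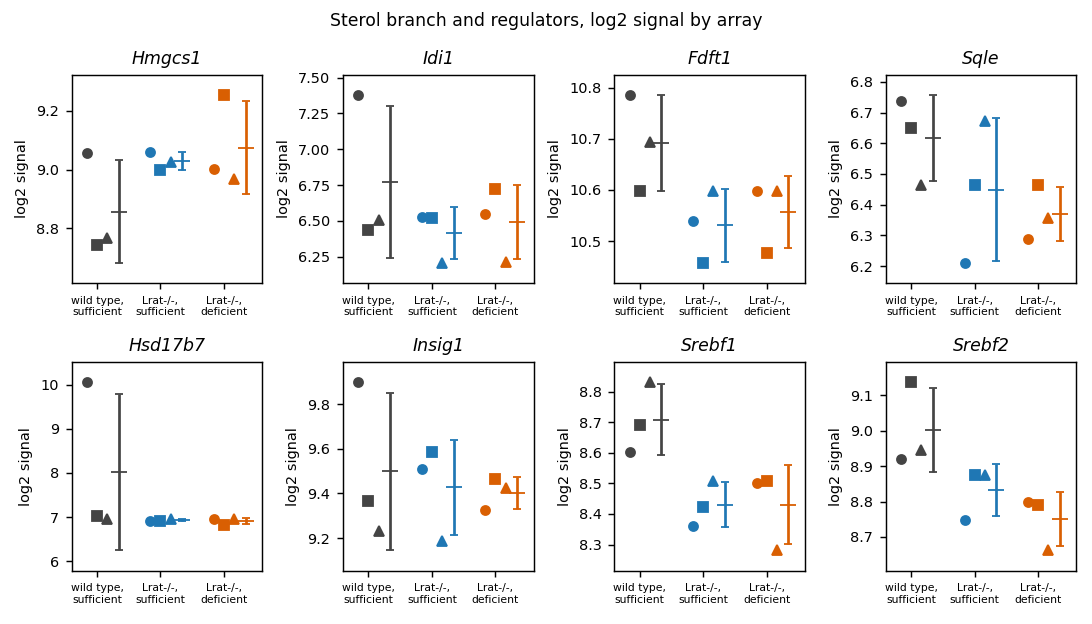
Log2 signal (vertical axis, a range of its own for each gene) of 5 sterol genes and 3 regulators by group, with circles, squares and triangles for arrays 1, 2 and 3 and the bar for the mean ± SD of 3 arrays. The circle of wild-type array 1 stands alone in Hsd17b7 at 10.06 and in Idi1 at 7.38, and Srebf1 and Srebf2 show no overlap between wild type and the arrays labelled Lrat-/-.

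The diet comparison asks what the deficient diet changed within mice labelled Lrat-/-. In limma 0 of 32 members and 0% of all genes were called, and at an unadjusted p under 0.05 there were 0 members and 1.31% of all genes (290). The median log2 difference, deficient minus sufficient, was 0.01 in the sterol branch, -0.04 in the fatty acid branch, -0.08 in the regulators and -0.01 over all genes. Scd1 differed by -0.04 (SE 0.14), Srebf1 by 0.00 (SE 0.09), Fads1 by 0.06 (SE 0.11) and Fads2 by -0.04 (SE 0.09). The 95% interval of Scd1 ran from -0.34 to 0.27 and that of Srebf1 from -0.21 to 0.21, and the intervals of all 32 members held 0. Fasn, at 0.22 (SE 0.12) with an interval from -0.05 to 0.49, was the only member whose 2 groups did not overlap, where 5.22% of all genes had groups that did not overlap. All 5 regulators had a difference at or below 0, the lowest that of Insig2 at -0.14 (SE 0.09). Dhcr7 had the lowest value of the sterol branch, -0.13 (SE 0.08). Differences of this size lie within the spread between arrays, and such a test does not show that the diets gave the same level.

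**Figure D4:**
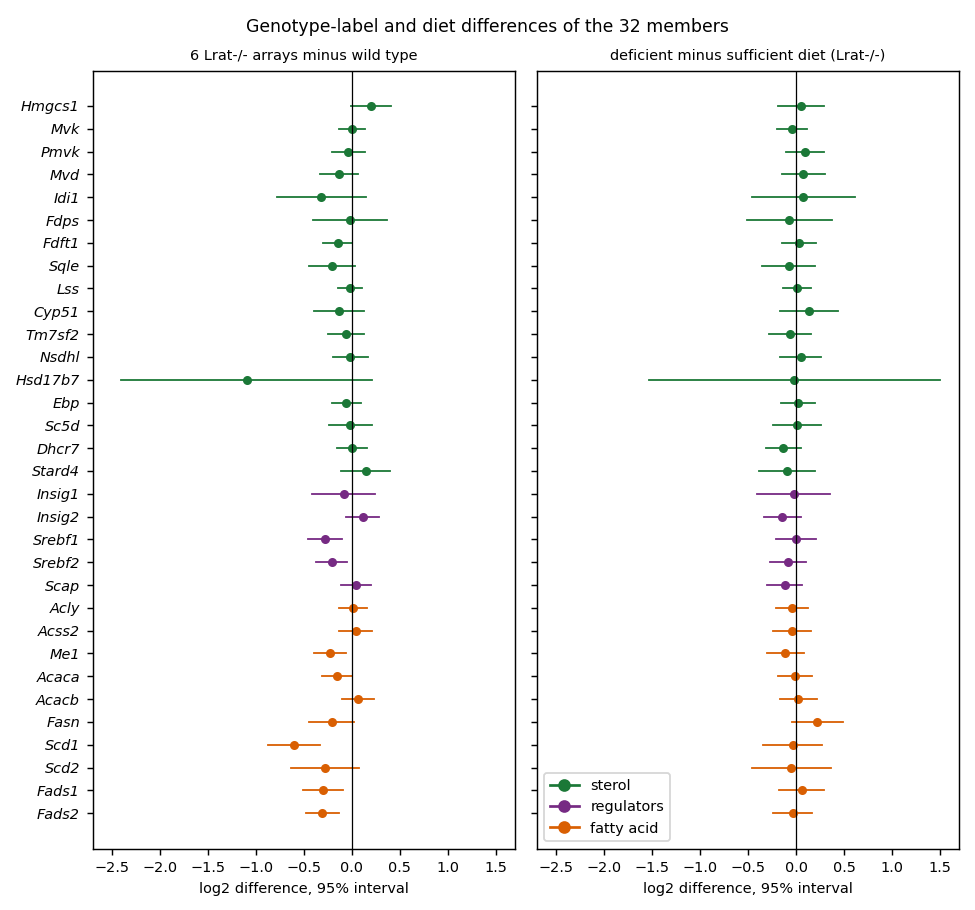
Log2 difference (points) with its 95% interval from limma (lines) for the 32 genes, for the 6 arrays labelled Lrat-/- minus wild type (left) and the deficient minus the sufficient diet in arrays labelled Lrat-/- (right). On the left 7 intervals lie wholly below 0, among them Scd1 from -0.87 to -0.33, and on the right all 32 hold 0.

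The comparisons that each use 3 arrays against 3 share the wild-type arrays, and their values are given side by side. Between genotype labels on the sufficient diet, 0 members were called against 0.0363% of all genes (8), and 5 members lay lower at an unadjusted p under 0.05, against 3.01% of all genes. These were Scd1 (log2 -0.58), Fads1 (-0.33), Fasn (-0.32), Fads2 (-0.29) and Srebf1 (-0.28). In 9 members the groups did not overlap, all lower, as in 4.03% of all genes. Deficient arrays labelled Lrat-/- against wild type gave 0 called members against 0.068% of all genes (15), and 6 members lay lower at an unadjusted p under 0.05, against 3.35%. These were Scd1 (log2 -0.62), Fads2 (-0.33), Me1 (-0.28), Srebf1 (-0.28), Fads1 (-0.27) and Srebf2 (-0.25). In 6 members these groups did not overlap, all lower, as in 4.88% of all genes. The fatty acid median was -0.21 in the first of these comparisons, -0.10 without wild-type array 1, and -0.22 in the other. Whether any member's difference from wild type was unlike between the diets is the diet comparison itself, in which none was called.

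Other genes of the pathways gave few values past an unadjusted p of 0.05, and none was called. Of 6 further sterol genes, 4 lay lower. These included Acat2, which joins acetyl-CoA units at the entry of the mevalonate pathway (log2 -0.20, SE 0.06), and Dhdds, which makes dolichol precursors (-0.24, SE 0.10). Acat2 read 7.99, 8.03 and 8.03 in wild type against 7.84, 7.87 and 7.92 and then 7.79, 7.83 and 7.64, without overlap. Of 13 lipogenic accessory genes, 8 lay lower. Mlxipl, the carbohydrate-responsive factor ChREBP, read 8.65, 8.82 and 8.87 in wild type, 8.45, 8.42 and 8.44 in the sufficient and 8.55, 8.54 and 8.63 in the deficient arrays labelled Lrat-/-. Those groups did not overlap, and the log2 difference was -0.28 (SE 0.07, adjusted p = 0.257 in limma). Dgat2, which makes triglyceride, lay higher by 0.25 (SE 0.09), and Mid1ip1, an activator of acetyl-CoA carboxylase, by 0.34 (SE 0.18). Of 12 genes of sterol efflux and liver X receptor signalling, 9 lay lower, with the cholesterol exporter Abca1 at -0.27 (SE 0.09) and the lysosomal carrier Npc2 at -0.14 (SE 0.10). The receptors themselves, Nr1h2 and Nr1h3, lay at -0.06 and -0.05. Of 8 genes for processing and partners of the binding proteins, 0 had an unadjusted p under 0.05. The protease Mbtps1 lay at 0.05, and the NF-Y subunits Nfya, Nfyb and Nfyc lay at 0.03, -0.05 and 0.09.

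Markers of cell types were read beside these groups. Cardiomyocyte markers had means of 13.01 to 14.51, far above the background controls. Of 10 adipocyte markers, 5 lay within 1 log2 unit of the background controls, and Adipoq, which defines adipocytes, read 4.95 to 5.37 in all arrays, below the 5.64 of the controls. Summed, the adipocyte markers were 11.73 to 11.90 in wild type, 11.79 to 11.89 in the sufficient and 11.86 to 12.21 in the deficient arrays labelled Lrat-/-, with overlap between the groups, and within that sum Fabp4 read 10.69 to 11.60 and Lipe 9.58 to 10.04. By gene, 6 of the 10 lay lower, none at an unadjusted p under 0.05, and the part of adipocytes was not tested. Of 4 hepatocyte markers, 3 lay within 1 log2 unit of background. All 7 fibroblast markers lay lower in the arrays labelled Lrat-/-, with a median log2 difference of -0.24. Their summed level was 13.45 to 13.49 in wild type, 13.26 to 13.35 in the sufficient and 13.23 to 13.39 in the deficient arrays labelled Lrat-/-. Most of that sum was Dcn, which read 12.89 to 13.12. The 10 fatty acid genes summed to 12.997 to 13.07, 12.87 to 12.91 and 12.82 to 12.91 in the same order. Both sums were highest in the wild-type group. Within that group, array 1 had the lowest fibroblast sum and the highest fatty acid sum. The 5 macrophage markers also lay lower, with a median of -0.21, and their summed level was 11.28 to 11.73, 11.09 to 11.30 and 11.18 to 11.31. Of the atrial markers, Myl7 read 8.05 in deficient array 3 against 6.57 to 7.13 in all other arrays, and Myl4 read 8.86 there against 7.93 to 8.29. The remaining marker, Sln, did not rise there: it read 5.51 to 5.54 in all arrays, below the 5.64 of the controls. Deficient array 3 was also the lowest of the 9 for 8 of 32 members, 4 of them fatty acid genes. How often it was the lowest over all genes is not reported here. Without it 4 fatty acid genes rather than 5 lay lower at an unadjusted p under 0.05. The share over all genes in that fit is not reported here. Of 4 genes listed as brown adipocyte markers, 2 lay within 1 log2 unit of background, Ucp1 at 5.63 to 6.10 and Elovl3 at 4.18 to 4.83. The sum of the list spread widely within groups, from 12.32 to 13.23. Most of that sum was Cox8b, which read 12.17 to 13.14, so its spread is mainly that of Cox8b. Which cells that signal came from was not tested. The part of fibroblast, macrophage and atrial content in the lower fatty acid genes was not tested.

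The members did not vary as a single unit over the 9 arrays. The median Pearson r of pairs was 0.65 among the 4 desaturases (6 pairs), 0.19 in the fatty acid branch (45 pairs), 0.09 in the sterol branch (136 pairs) and 0.01 over all pairs of genes. After group means were removed it was 0.10, 0.10, 0.04 and 0.01. The pairs share the same arrays and the same normalization, and these are descriptions. In the authors' deposited table, made with scan date as a factor, no member had a false discovery rate under 0.05. The lowest there was 0.39, for Fads2, a rate given for any group and not per comparison as the adjusted p above. The ratio of deficient arrays labelled Lrat-/- over wild type was 0.773 for Fads2 and 0.695 for Scd1.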

How the data were processed

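The deposited values are log2 signals per probe set, which the authors made with RMA, per the submitters' processing notes with R 3.1.2 and the mm8 build. The authors' deposited table of ratios, p-values and false discovery rates rests, per the file headers, on a variance analysis that included scan date. Only false discovery rates and ratios of members are quoted from it. The other table supplied gene symbols; its 9 columns of values match no sample label and were not used. Symbols were updated through the RefSeq gene table of GRCm38.p6: 22115 probe sets matched by accession, 1815 by symbol, 625 by synonym, and 910 kept the name given. The builds differ, so that table gave names only, and promoter coordinates are its own. Where several probe sets had 1 symbol, the brightest on average was kept, which left 22061 genes.

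The package limma 3.58.1 (R 4.3.3) was fitted to all 9 arrays (group means, default empirical Bayes, 6 residual and 3.34 prior degrees of freedom), with Benjamini-Hochberg adjustment over all 22061 genes. Called genes had an adjusted p under 0.05. The fits were tested on simulated data. The number of arrays limits the precision. Wild type was labelled so in 3 arrays and Lrat-/- in 6. Arrays of the same number deviated together after group means were removed: r across genes was 0.138 to 0.391 for the 9 same-number pairs and -0.365 to 0.223 for other pairs, so the replicate number was used as a block in an alternative fit. The numbers come from the sample titles, and no label says what they share.

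The members, lists, naming rule and comparisons were chosen with earlier results of these data known. Values in every array are given for members called anywhere, the lowest F-test p in each role, the 3 lowest p per comparison, and Hmgcs1, Sqle, Insig1, Srebf1, Srebf2, Fasn, Scd1 and Scd2; Hsd17b7 and Idi1 were singled out after their values were seen, as were Nr1h2, Nfya, Nfyb and the promoters shown. Other lists name the 3 lowest p, of which some are not reported here. Figures were drawn with matplotlib 3.10.9 in Python 3.11.15.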

Additional observations from a re-analysis of the deposited data

How the results depend on the processing

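No member was called in any of the 4 comparisons under any alternative. Of 324 recomputed counts and medians that answer a comparison, 297 stayed within 1.5 times the reported count or within the spread between arrays, and 27 moved, all of them counts over all genes. Of 1264 other values, 1254 stayed and 10 moved. Since no member was called, a change of sign in a called member could not occur. Uncalled differences did change sign, as that of Insig1 in the joint comparison, from -0.08 to 0.12 without wild-type array 1. The genotype count of 8 genes became 15 with all probe sets kept, 2 with arrays numbered 1 and 2 alone and 2 with only the groups compared in the fit. The diet count of 0 became 2 with array weights. The combined count of 15 became 32 with array weights, 3 with arrays numbered 1 and 2 alone and 9 with only the groups compared. The count of 19 for all arrays labelled Lrat-/- became 37 with all probe sets, 29 with array weights, 6 with arrays numbered 1 and 2 alone, 38 with the arrays numbered 3 as a block and 32 with the replicate block. The block moved members at an unadjusted p under 0.05 from 7 to 9 in the joint comparison, from 5 to 7 (1 of them, Stard4, higher) for genotype and from 6 to 7 in the combined comparison, left 0 for diet, and changed no adjusted call of a member. In the joint comparison the share of all genes rose as well, from 4.03% lower and 3.39% higher to 10.3% in either direction. For the other comparisons the share of all genes with the block is not reported here. A replicate block without wild-type array 1, chosen after seeing the data, gave 34, 31 and 59 genes in the genotype, combined and joint comparisons. Leaving out 1 array at a time gave 7 to 27 genes for genotype (27 without wild-type array 1, 17 without wild-type array 3), 0 for diet, 7 to 32 for the combined comparison (32 without wild-type array 3, 7 without deficient array 1 or 2) and 9 to 47 for all arrays labelled Lrat-/- (47 without wild-type array 1, 45 without wild-type array 3, 11 without array 3 of either group labelled Lrat-/-, 9 without array 1 of either or without deficient array 2). Why these counts moved was not tested; fewer arrays or groups leave fewer degrees of freedom. Signals near background, such as those of Sqle, Lss and Idi1, limit the size of any fold that could be read.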
